A study of Mus musculus with 3 samples.

Results

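Follicular helper T cells are helper T cells that enter B cell follicles and help B cells form germinal centres. The 10 genes described here (Ascl2, Bcl6, Cxcr5, Sh2d1a, Tox, Tox2, Pou2af1, Il6ra, Slamf6 and Prdm1) encode factors, receptors and an adaptor of that programme, and Prdm1 encodes its main antagonist. They were chosen by name, and their probes were found through the accession printed for each probe in the scanner files. All 10 were found, by 11 probes in all, among 20886 named genes on the array. Slamf6 had 2 probes and the other 9 genes had 1 probe each.

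Agilent 1-colour arrays read the RNA of CD4 cells 2 days into stimulation. The cells came from C57BL/6 females, 8 weeks old, and the 3 samples, 1 array each, were Rbpj-/- (Rbpj KO), Dll1-/- (Dll1 KO) and wild type (WT). Notch receptors act on transcription through Rbpj, which binds DNA, and Dll1 is a membrane-bound Notch ligand. The sources used here do not give which cells carried a deletion, how the cells were purified and stimulated, or how many mice gave each sample. With 1 array per group there is no replicate spread and no test, so every difference below compares arrays.

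Bcl6 is the repressor that defines the follicular helper lineage. It is induced early after activation by signals that include interleukin-6, and its action is opposed by Blimp-1, the product of Prdm1. The chemokine receptor CXCR5 draws the cells towards the ligand CXCL13 in follicles, and the SLAM receptors with their adaptor SAP, encoded by Sh2d1a, keep T and B cells in contact. Notch signalling is known to favour follicular helper differentiation in mice.

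Levels are log2 of the processed spot signal minus the 75th percentile of the array, so a level of 0 is a probe at that percentile. A level is compared between arrays for the same probe and never between probes. The scanner software's own error for a difference between arrays was 0.20 to 0.30 log2 for the members well above background on both arrays, and 0.37 for Tox2 between the knockouts. It does not cover the cells. Per array it was 0.14 log2 for each of the bright probes of Bcl6, Sh2d1a, Pou2af1 and Il6ra. There it is close to a fixed share of the signal and was not measured spot by spot from repeats. Repeated spots had a median SD of 0.06 to 0.07 log2, but percentile 95 of that SD was 0.30 to 0.44. A gene was called apart at 1.5-fold, which is 0.58 log2.

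The members' promoters were read for the core site of the Rbpj protein, since Rbpj is the gene deleted in the sample where 4 members stood 1.5-fold above WT. RefSeq promoter windows (build GRCm38.p6) were at hand for 7 of the 10 genes, 12 windows in all, and the 250 bases before each start were searched on both strands for TGGGAA. No window was at hand for Cxcr5, Sh2d1a and Tox, so Ascl2 is the 1 gene of those 4 that was searched, and 5 of the 12 windows belong to Tox2. This core occurred in 2 of the 12 windows, those of Il6ra and Prdm1, and in 21.6% of all 32851 windows of the same length. The longer form GTGGGAA, which contains the core, occurred in the Il6ra window alone among the 12, beginning 15 bases before the start, and in 5.42% of all windows. The window of Ascl2, the member with the largest difference, held no match. These 3 windows are shown 5′ to 3′ with the core in capitals (it reads TTCCCA in the Prdm1 window, being on the other strand).
Ascl2, chr7:142969265-142969514, minus strand: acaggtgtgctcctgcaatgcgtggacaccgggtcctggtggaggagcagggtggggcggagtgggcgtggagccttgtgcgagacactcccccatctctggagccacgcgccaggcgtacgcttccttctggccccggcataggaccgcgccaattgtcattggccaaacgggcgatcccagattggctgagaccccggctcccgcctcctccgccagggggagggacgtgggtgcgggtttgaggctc
Il6ra, chr3:89913197-89913446, minus strand: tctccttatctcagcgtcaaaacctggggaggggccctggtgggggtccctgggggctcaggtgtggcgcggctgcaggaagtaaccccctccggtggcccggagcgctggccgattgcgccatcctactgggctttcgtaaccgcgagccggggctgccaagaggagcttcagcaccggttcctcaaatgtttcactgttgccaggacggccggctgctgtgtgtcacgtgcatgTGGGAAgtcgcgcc
Prdm1, chr10:44458749-44458998, minus strand: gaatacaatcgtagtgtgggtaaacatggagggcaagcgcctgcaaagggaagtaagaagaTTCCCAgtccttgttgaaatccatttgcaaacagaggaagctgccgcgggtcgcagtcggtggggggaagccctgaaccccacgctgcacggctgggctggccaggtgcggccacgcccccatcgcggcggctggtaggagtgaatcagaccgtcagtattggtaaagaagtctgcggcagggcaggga
A match is a string of letters and was not tested as a binding site, and the absence of one says only that these letters are not in that window.

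Across the 9 members measured on both arrays, 4 exceeded WT by 1.5-fold or more in the Rbpj KO and 0 fell short of WT by as much. Of all 11589 genes with a value on both arrays, 4.47% were that much higher and 6.65% that much lower. The 4 were Ascl2, Tox, Sh2d1a and Cxcr5. All 9 lay above WT, against 39.7% of all genes, with a median log2 difference of 0.35 against -0.07 over all genes. In the Dll1 KO 0 of 9 members were 1.5-fold higher and 0 were 1.5-fold lower than WT, where 1.7% and 2% of 11822 genes were. Their median difference there was 0.02, against -0.03 over all genes, with 5 members above WT (44.1% of all genes) and 4 below. These counts leave out Tox2, whose probe was not well above background in WT.

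The size of these differences depends on how arrays are set against each other. With scaling to each array's median instead of its 75th percentile, Ascl2 alone stayed 1.5-fold apart between the Rbpj KO and WT, and 8 of 9 members lay above WT, Pou2af1 being at -0.05. Over all genes 14.9% were then 1.5-fold apart, 305 higher and 1417 lower. With scaling to the E1A spike-in spots, RNA added in known amounts, 0 of 9 were 1.5-fold apart and 4 of 9 lay above WT, and the median of all genes was -0.66. Of all genes 61.1% were then apart, 90 higher and 6988 lower. Relative to the median of all genes, which no such scaling changes, all 9 members were higher in the Rbpj KO: Ascl2 by 1.12, Tox by 0.78, Sh2d1a by 0.77, Cxcr5 by 0.69, Bcl6 by 0.43, Prdm1 by 0.37, Slamf6 by 0.27, Il6ra by 0.24 and Pou2af1 by 0.19 log2. Directions given below are those of the 75th percentile scaling, and with spike-in scaling Bcl6, Prdm1, Slamf6, Il6ra and Pou2af1 lay below WT in the Rbpj KO. In such bulk RNA, more cells of a type and more RNA per cell cannot be told apart.

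**Figure D1:**
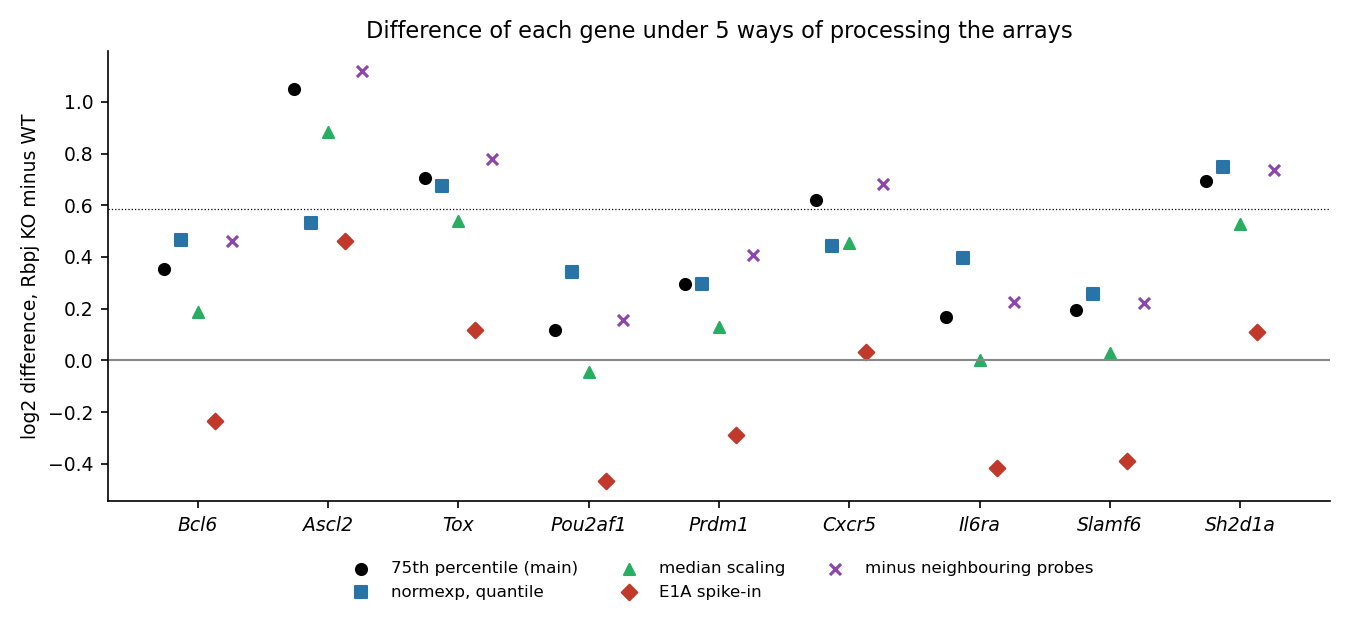
Log2 difference of the 9 members between the Rbpj KO and WT under 5 ways of processing the same arrays, 1 symbol each; the dotted line is 1.5-fold. Spike-in scaling moves all genes down alike and leaves Ascl2 highest at 0.46, and Ascl2 moves from 1.05 to 0.53 after normexp with quantile normalization.

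**Figure D2:**
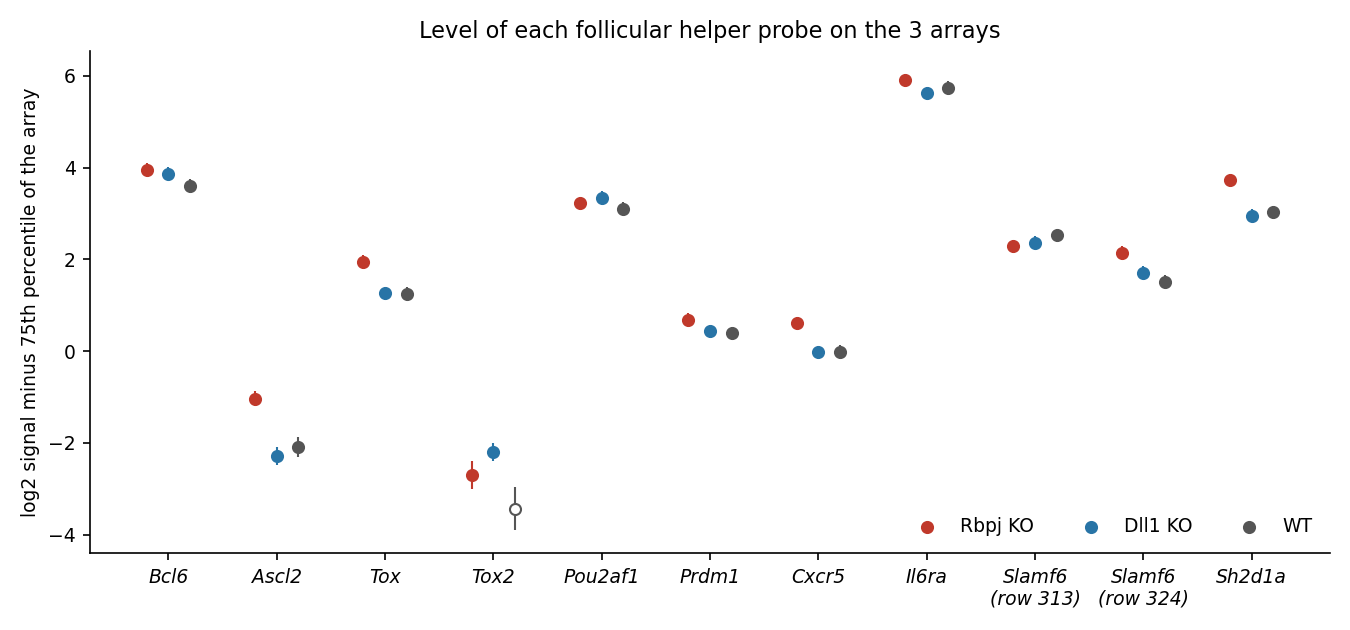
Level of each of the 11 probes on the Rbpj KO, Dll1 KO and WT arrays, as log2 signal minus the array's 75th percentile; bars are the scanner software's error estimate (1 array per group), and the open point is not well above background. The Rbpj KO point lies above both others by at least 1.5-fold for Ascl2, Tox, Cxcr5 and Sh2d1a. It is also highest, by less, for Bcl6, Prdm1 and Il6ra, and the Slamf6 probes differ in order.

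Among the transcription factors, Ascl2 differed most. Ascl2 is a basic helix-loop-helix factor that promotes Cxcr5 expression in mouse helper cells. Its level was -1.04 in the Rbpj KO and -2.29 in the Dll1 KO, against -2.09 in WT, from processed signals of 68.9, 31.9 and 41.8 in the same order. The Rbpj KO array stood above both others, while the Dll1 KO lay 0.20 below WT, less than the error estimate of 0.30 for that difference. The difference between the Rbpj KO and WT was 1.05 log2, or 2.07-fold, with an error estimate of 0.27, and lay at percentile 98.9 of all genes. Ascl2 was the 1 member at least 2-fold apart, and 1.2% of all genes were that much higher. Ascl2 was also a dim probe. With all genes parted into 3 equal groups by level, 9.37% of the 3863 dimmest, which include Ascl2, were at least 1.5-fold higher in the Rbpj KO. The share was 2.8% in the middle group, which holds Cxcr5, Tox, Slamf6 and Prdm1, and 1.24% in the brightest, which holds Bcl6, Sh2d1a, Pou2af1 and Il6ra. After normexp background correction and quantile normalization the Ascl2 difference was 0.53, below the 1.5-fold line. It was then smaller than those of Tox (0.67) and Sh2d1a (0.75).

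Tox encodes an HMG-box nuclear protein found in follicular helper, developing and chronically stimulated T cells. Its level was 1.94 in the Rbpj KO and 1.26 in the Dll1 KO, against 1.24 in WT. The knockout of Rbpj again stood alone, 0.70 log2 or 1.63-fold above WT, with an error estimate of 0.20, and the other arrays lay 0.02 apart. After normexp and quantile normalization the difference was 0.67.

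Tox2, a relative of Tox that supports follicular helper differentiation in mice, was near the lower limit of the measurement. Its level was -2.71 in the Rbpj KO and -2.19 in the Dll1 KO, and its signal of 16.4 in WT was not well above background. WT gives only an approximate upper limit there, so the folds over WT are bounds that leave out spot error. They were at least 1.41-fold in the Rbpj KO and at least 2.02-fold in the Dll1 KO. Between the knockouts it was the member with the largest difference in the other direction, -0.52 log2 in the Rbpj KO relative to the Dll1 KO, with an error estimate of 0.37. Its spot lies in row 34 of the array, near the first edge.

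Bcl6 itself was bright on each array. Its level was 3.95 in the Rbpj KO and 3.87 in the Dll1 KO, against 3.60 in WT. Both knockouts lay above WT, by 0.35 and 0.27 log2, and 0.08 apart from each other, which is less than the error estimate of 0.20. Neither difference reached 1.5-fold, and they lay at percentiles 89.5 and 90.4 of all genes in their comparisons, which share the WT array.

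Pou2af1 encodes a coactivator of octamer-binding factors that is best known from B cells and is needed for germinal centres. Its level was 3.22 in the Rbpj KO and 3.34 in the Dll1 KO, against 3.10 in WT. No pair of arrays differed by more than 0.23 log2, against an error estimate of 0.20. After normexp with quantile normalization Pou2af1 was at 0.34 in the Rbpj KO and 0.36 in the Dll1 KO relative to WT. The antagonist Prdm1 did not run opposite to Bcl6 on these arrays. Its level was 0.68 in the Rbpj KO and 0.43 in the Dll1 KO, against 0.38 in WT, so it too was highest in the Rbpj KO, by 0.30 log2 with an error estimate of 0.21.

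Of the receptors, Cxcr5 stood apart in the Rbpj KO. Its level was 0.60 in the Rbpj KO and -0.03 in the Dll1 KO, against -0.01 in WT. The Dll1 KO and WT arrays differed by 0.02 log2, and the Rbpj KO lay 0.62 above WT, or 1.54-fold, with an error estimate of 0.21. This is just past the 1.5-fold line, and after normexp with quantile normalization it was 0.44. Il6ra, the interleukin-6-binding chain of the receptor that induces Bcl6, was read by a bright probe. Its level was 5.91 in the Rbpj KO and 5.62 in the Dll1 KO, against 5.74 in WT. These levels differ by 0.28 log2 at most. After normexp with quantile normalization the Rbpj KO lay 0.39 above WT and 0.42 above the Dll1 KO.

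Slamf6, a SLAM receptor that binds to itself on neighbouring cells and signals through SAP, was read differently by its 2 probes, which carry the same accession. The probe in row 324 had levels of 2.14 in the Rbpj KO and 1.71 in the Dll1 KO, against 1.51 in WT. The probe in row 313 had levels of 2.28 in the Rbpj KO and 2.36 in the Dll1 KO, against 2.52 in WT. In the Rbpj KO the first was thus 0.63 log2 higher than in WT, or 1.54-fold, and the second differed by -0.24, each with an error estimate of 0.20. Their mean, 0.19, is what enters the counts above. The sources used here do not give where the probes lie on the Slamf6 transcripts.

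Sh2d1a, the gene of the SAP adaptor, is on chromosome X. Its level was 3.72 in the Rbpj KO and 2.95 in the Dll1 KO, against 3.03 in WT. Only the Rbpj KO array departed, by 0.69 log2 or 1.62-fold from WT, and the Dll1 KO lay 0.08 below WT, each with an error estimate of 0.20. After normexp with quantile normalization the difference between the Rbpj KO and WT was 0.75. It was the 1 gene of the 4 that belongs to the brightest group of genes.

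The knockouts were also set against each other. Of 10 members, 4 exceeded the Dll1 KO by 1.5-fold or more and 0 fell short of it by as much, against 5.08% and 6.05% of 11811 genes. They were Ascl2 at 1.25 log2 (2.38-fold), Sh2d1a at 0.77 (1.71-fold), Tox at 0.69 (1.61-fold) and Cxcr5 at 0.63 (1.55-fold). The median over the 10 members was 0.27, against -0.03 over all genes, with 8 above the Dll1 KO (45.1% of all genes). This comparison shares the Rbpj KO array with the one against WT, so it is no second measurement of that array.

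**Figure D3:**
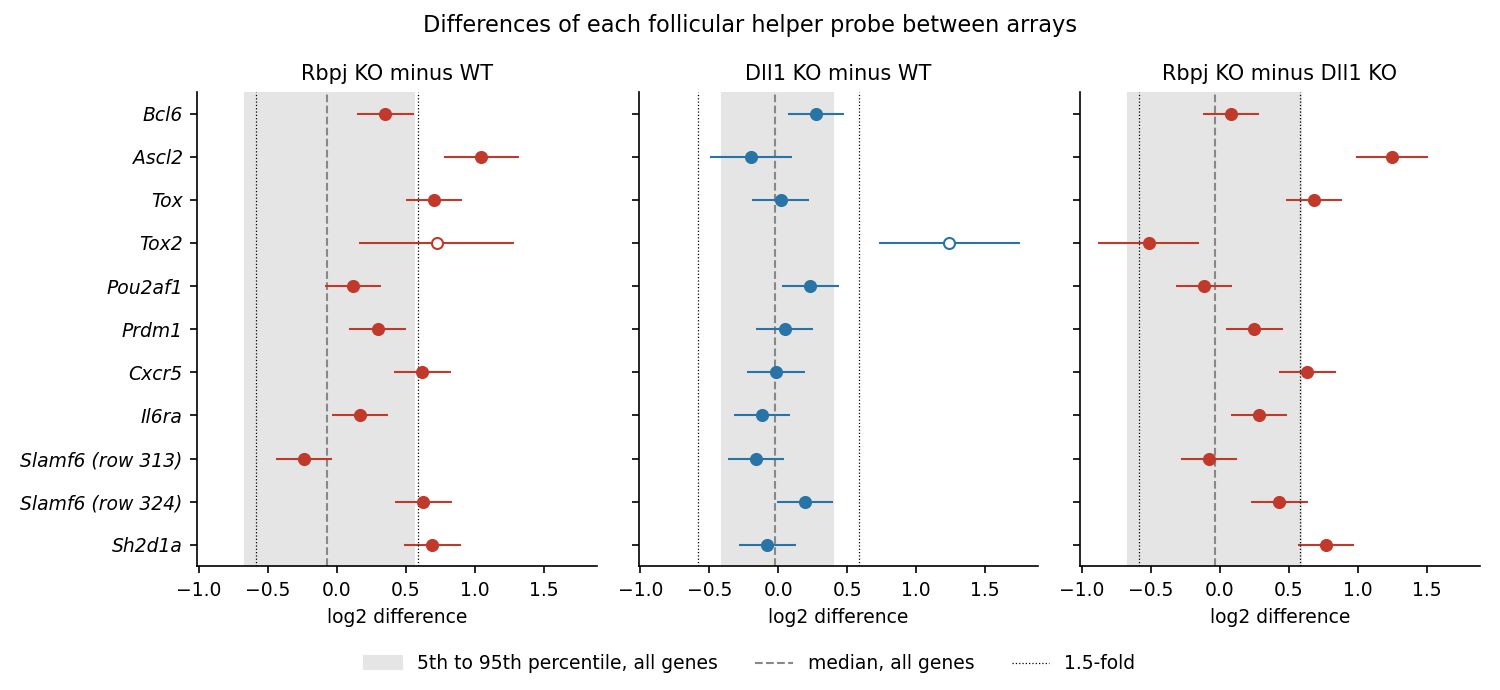
Log2 difference of each probe for the Rbpj KO minus WT, the Dll1 KO minus WT and the Rbpj KO minus the Dll1 KO; bars are the scanner software's error estimate, the grey band runs from percentile 5 to percentile 95 of all genes, and open points are not well above background on 1 array of the pair. Ascl2, Tox, Cxcr5, Sh2d1a and the Slamf6 probe in row 324 lie right of the band for the Rbpj KO minus WT (-0.67 to 0.56). The open points of Tox2 also lie right of the band there and, as the 1 such probe, for the Dll1 KO (-0.41 to 0.40). They are drawn at the measured differences, 0.73 and 1.24, from a WT signal not well above background. The bounds are smaller, at least 1.41-fold in the Rbpj KO and at least 2.02-fold in the Dll1 KO.

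Position on the array was checked for each member, since the share of single probes standing apart varied over the surface. Of named probes printed as 1 spot, 5.29% in the first part of the rows, up to the middle of the array, exceeded WT by at least 1.5-fold in the Rbpj KO, against 4.37% in the second part. Ascl2 (row 184), Tox (row 174) and Cxcr5 (row 84) lie in the first part, and Sh2d1a (row 369) in the second. The 155 to 170 probes within 10 rows and 10 columns of these 4 spots had median differences between -0.08 and -0.04 log2. With the median of its neighbours taken off, each of the 4 remained at least 1.5-fold apart, at 1.12 for Ascl2, 0.78 for Tox, 0.73 for Sh2d1a and 0.68 for Cxcr5. As these medians were below 0, like that of all genes (-0.07), taking them off could only raise the 4 differences. Over the 11 member probes, from 7.1% (Sh2d1a) to 19.9% (Il6ra) of neighbours were 1.5-fold apart in either direction.

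The targeted genes and the cell type were read in the same way. Rbpj, by 2 probes, was at -0.50 log2 in the Rbpj KO and 0.28 in the Dll1 KO relative to WT. Dll1 gave no signal well above background, at signals of 4.06 in the Rbpj KO and 3.60 in the Dll1 KO, against 4.51 in WT. How these probes lie to the deleted sequence is unknown here, and neither genotype is checked by them. The 8 T cell markers were well above background on each array, with Cd3e at levels of 6.68 in the Rbpj KO and 6.80 in the Dll1 KO, against 6.75 in WT. Their median difference from WT in the Rbpj KO was 0.13 log2, against -0.07 over all genes. Of the 8, 5 lay above WT (39.7% of all genes) and 3 below, from Cd3e at -0.07 to Cd28 at 0.56. In the Dll1 KO their median was 0.01. Cd4 was 0.38 log2 higher in the Rbpj KO than in WT as a mean of 2 probes.

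Several members are also expressed outside T cells, so markers of those cells are given beside them. B cells express Bcl6, Cxcr5 and Pou2af1. Of 12 B cell markers, 9 were well above background in the Rbpj KO and 11 in the Dll1 KO, against 8 in WT, with Pax5 and Ebf1 not well above background in the Rbpj KO or WT and Blk on none of the 3 arrays. The summed level of the list, in linear units of the 75th percentile with a gene's probes averaged, was 21.7 in the Rbpj KO and 27.5 in the Dll1 KO, against 28.5 in WT. The median log2 difference was -0.32 over the 8 markers measured in the Rbpj KO and WT. Of these, 5 lay below WT, with Ms4a1, which encodes CD20, at -0.73. Above WT lay 3 (39.7% of all genes), among them Bank1 at 0.31 and Cr2 at 0.24. Cd79a, a chain of the B cell receptor, was not well above background in WT. Against its measured WT level it was 2.13-fold higher in the Rbpj KO, which is no bound. In the Rbpj KO it was 1.13 log2 above the Dll1 KO, and 0.17 after normexp with quantile normalization. Plasma cells express Prdm1. Their 6 markers summed to 27.9 in the Rbpj KO and 31.9 in the Dll1 KO, against 29.6 in WT, with Tnfrsf17 not well above background on the 3 arrays and Sdc1 well above it in the Dll1 KO alone. Most of that sum is Xbp1, at -0.05 log2 in the Rbpj KO relative to WT, and other markers of the list lay far on either side. Jchain, the joining chain of secreted antibodies, was at levels of -0.96 in the Rbpj KO and -3.29 in the Dll1 KO, against -3.07 in WT, and so 4.34-fold higher in the Rbpj KO than in WT. The lowest levels that count as well above background were -3.51 in the Dll1 KO and -3.21 in WT, so Jchain was near the limit there. After normexp with quantile normalization its difference between the Rbpj KO and WT was 0.81 log2. Mzb1, which helps antibody assembly, was 1.94-fold lower there.

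NK cells express Slamf6 and Sh2d1a, and their 6 markers summed to 6.96 in the Rbpj KO and 20.0 in the Dll1 KO, against 19.5 in WT. The granule genes set the sum, with Gzma in the Rbpj KO 8.38-fold and Nkg7 2.72-fold below WT, while Tyrobp, a receptor adaptor, was at -0.24 log2. Klrb1c, which encodes NK1.1, was well above background by 1 of 2 probes in both knockouts and by none in WT. By that probe it was 0.64 log2 higher in the Rbpj KO than in the Dll1 KO, and 0.15 after normexp with quantile normalization. Ncr1 and Klrk1 gave no signal well above background. The CD8 T cell markers Cd8a and Cd8b1 summed to 0.82 in the Rbpj KO and 1.34 in the Dll1 KO, against 1.36 in WT. Macrophages and monocytes express Il6ra. Of their 8 markers 7 are on the array, with Adgre1, Cd14 and Fcgr1 not well above background on the 3 arrays, and they summed to 72.1 in the Rbpj KO and 35.2 in the Dll1 KO, against 46.4 in WT. That sum rests on 1 of 3 probes for Itgam, at 0.66 log2 in the Rbpj KO relative to WT, where another Itgam probe was at -0.41. As gene means, Csf1r was at 0.34 and Itgam at 0.12 log2, the 2 markers measured in both. All 5 regulatory T cell markers lay above WT in the Rbpj KO (39.7% of all genes), 3 of them at least 1.5-fold (4.47% of all genes). Ikzf2, which encodes Helios, was at 1.59, the lineage factor Foxp3 at 1.25 and the inhibitory receptor gene Ctla4 at 0.89 log2. The other markers, Tnfrsf18 and Il2ra, were at 0.21 and 0.06. In the Dll1 KO 4 of 5 lay above WT (44.1% of all genes), with a median of 0.28 log2. The list summed to 125 in the Rbpj KO and 108 in the Dll1 KO, against 104 in WT. Follicular regulatory cells share Bcl6 and Cxcr5 with follicular helper cells. The part of any of these cell types in the members' differences was not tested.

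Other genes of the programme lay on both sides of WT in the Rbpj KO. The lists were set with earlier results known. The 20 genes listed as inducing signals and factors had a median difference of -0.01 log2, with 10 above WT (39.7% of all genes) and 10 below. Of the 20, 2 were at least 1.5-fold higher and 0 were that much lower (4.47% and 6.65% over all genes). Maf, a factor that drives interleukin-21 and interleukin-4, had levels of 1.66 in the Rbpj KO and 1.17 in the Dll1 KO, against 0.93 in WT, a difference of 0.73 from WT in the Rbpj KO. Id3, an inhibitor of E proteins that is high in follicular helper cells, had levels of 1.54 in the Rbpj KO and 0.64 in the Dll1 KO, against 0.81 in WT, also a difference of 0.73. Id3 was like Tox and Sh2d1a in being high on the Rbpj KO array alone, and Maf was intermediate in the Dll1 KO.

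Of 15 surface and effector genes, 12 were measured in the Rbpj KO and WT. Their median was 0.13, with 0 genes 1.5-fold higher and 1 gene 1.5-fold lower (4.47% and 6.65% over all genes). That gene was Il4, a cytokine that follicular helper cells give to B cells. Its level was -0.60 in the Rbpj KO and 2.29 in the Dll1 KO, against 2.04 in WT, so in the Rbpj KO it was 6.23-fold lower than in WT. The surface receptors differed less. Icos, the costimulatory receptor needed for follicular helper cells, was at 0.33 log2 in the Rbpj KO, and Pdcd1, the inhibitory receptor PD-1, at 0.16. In the Dll1 KO the same list had a median of 0.17 and 1 gene at least 1.5-fold higher (1.7% over all genes). This was Il21, the cytokine most typical of these cells, with levels of -1.57 in the Rbpj KO and -1.08 in the Dll1 KO, against -1.94 in WT. Il21 was 0.85 log2 above WT in the Dll1 KO, 0.37 after normexp with quantile normalization.

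The 3 genes of that list not measured in these pairs were Cd40lg, Sostdc1 and Angptl2. Cd40lg, the ligand through which helper cells activate B cells, was well above background in WT alone. As bounds, the Rbpj KO was lower than WT by at least 2.64-fold and the Dll1 KO by at least 3.38-fold. These differ through the lowest level that counts as well above background, -3.16 in the Rbpj KO and -3.51 in the Dll1 KO. They do not rank the knockouts, whose measured levels were -5.07 in the Rbpj KO and -4.19 in the Dll1 KO. Cd40lg was read by 1 probe, in row 47.

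Genes of opposing programmes, or held down in follicular helper cells, had a median difference of 0.01 log2 over 21 genes in the Rbpj KO, with 1 gene 1.5-fold higher and 3 lower (4.47% and 6.65% over all genes). The lower ones were Socs1, an inhibitor of cytokine signalling, at -1.21, Tbx21, the Th1 factor T-bet, at -1.04, and Stat5a, which carries interleukin-2 signals that oppose Bcl6, at -0.73. The higher one was Il2rb, a chain of the interleukin-2 receptor, at 0.65. Blimp-1 acts on the same side, and Prdm1, as given above, was not lower. In the Dll1 KO none of the 21 reached 1.5-fold in either direction (3.7% over all genes), and the largest differences were Id2 at 0.39 and Rora at 0.30. Of the 20 inducing genes none reached 1.5-fold either, the largest being Zbtb7b at -0.54 and Lef1 at -0.33.

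Relatives of Tox and Sh2d1a were read as families. In the TOX family Tox was 0.70 log2 above WT in the Rbpj KO and Tox4, by 2 probes, at -0.59, while Tox3 gave no signal well above background. Among SLAM receptors and adaptors 9 of 11 were measured, with a median of 0.18 in the Rbpj KO. Sh2d1a was the 1 gene at least 1.5-fold higher (4.47% over all genes). Slamf7, a receptor of cytotoxic and plasma cells, was the 1 gene at least 1.5-fold lower (6.65% over all genes), at -0.61. The SAP-related adaptor genes Sh2d1b1 and Sh2d1b2 gave no signal well above background. In the Dll1 KO the 9 genes had a median of -0.04 and 0 were 1.5-fold apart (3.7% over all genes).

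**Figure D4:**
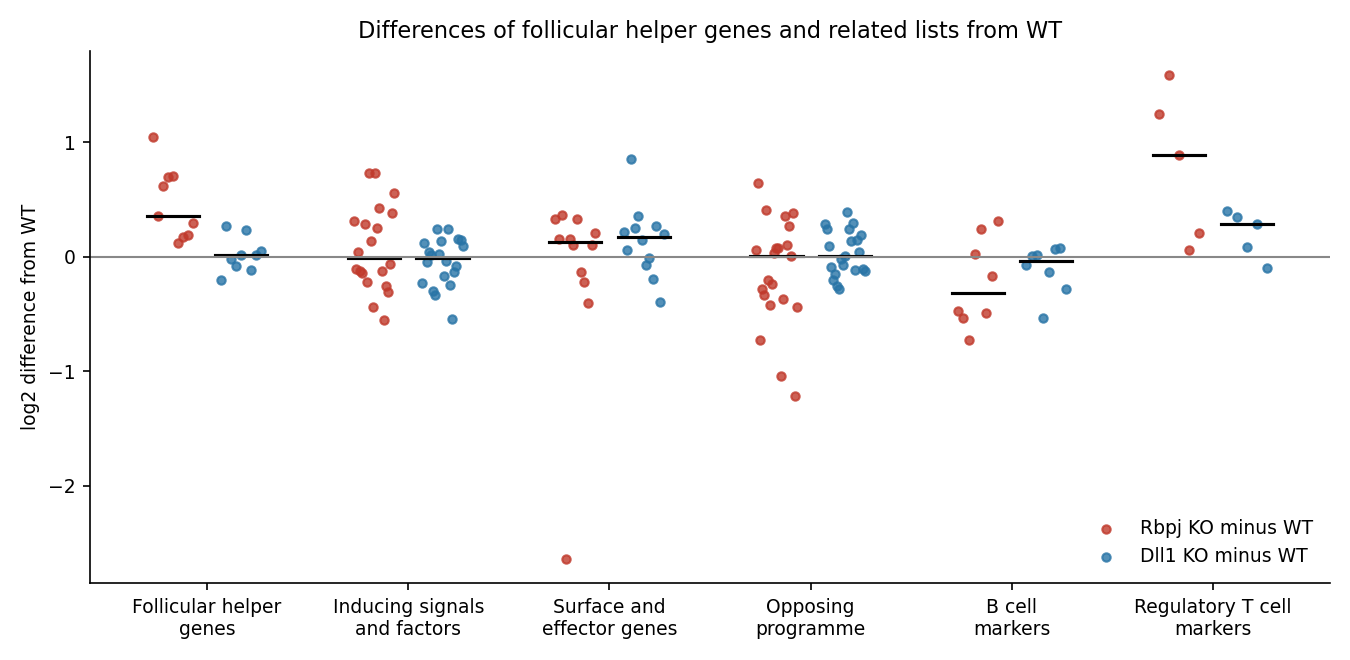
Log2 difference from WT of the measured genes of 6 lists, 1 point per gene, for the Rbpj KO (red) and the Dll1 KO (blue); black lines are medians. The follicular helper genes have medians of 0.35 in the Rbpj KO and 0.02 in the Dll1 KO, and the inducing and opposing lists lie around 0 in both.

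The 3 genes whose pair of differences from WT was nearest to that of Ascl2, by Euclidean distance over the 3 arrays among 11030 genes, were Zfp874a, Zfyve28 and Tirap. Zfp874a was at 1.05 in the Rbpj KO and -0.20 in the Dll1 KO, Zfyve28, by 1 of its 3 probes, at 1.07 and -0.20, and Tirap at 0.98 and -0.20. With 3 arrays a likeness of this kind rests on 2 numbers per gene.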

How the data were processed

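The members, lists and settings were chosen with earlier results of these data known. The authors deposited scanner files whose processed signal is an intensity, background-subtracted and detrended by Agilent Feature Extraction (10.7 per the labels, 10.7.1.1 per the file headers). Labelling began with 20 ng of RNA, per the labels. The deposited series table holds log2 values made by the authors, which for 100% of single-spot probes were within 0.01 of the log2 signal plus a constant per array. Its column medians were -3.28 in the Rbpj KO, -3.40 in the Dll1 KO and -3.44 in WT.

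Control spots and outlier spots (139 in the Rbpj KO, 163 in the Dll1 KO and 143 in WT) were left out, 0 spots were saturated, and 26342, 27923 and 25956 of 55678 probes in the same order were well above background. Repeated spots well above background had a median SD of 0.07, 0.06 and 0.07 log2, with percentile 95 at 0.44, 0.40 and 0.30. The 3 arrays lie on 1 slide with 1 scan time, per the file headers. Accessions were matched to a RefSeq table (GRCm38.p6), which named 27507 probes (49.4%). The array design was built on another assembly, so the table gave names only. For a gene, differences of probes well above background on both arrays were averaged. A bound sets the bright level against the dim probe's own level or, if higher, the lowest level that counts as well above background on that array. It leaves out spot error. A probe above that lowest level can still not count as well above background, as Cd79a did in WT.

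Named genes were the 10 members, Dll1, Rbpj, Cd4 and Cd3e, the 3 genes most like Ascl2, and from each pathway list up to 5 genes 1.5-fold or more from WT, or failing these the 2 farthest from it. Other genes were named after their values were seen. Analysis used Python 3.11.15, pandas 2.3.3 and limma 3.58.1 (normexp, offset 50, on the median spot and background signals), and the steps were tested on simulated data.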

Additional observations from a re-analysis of the deposited data

How the results depend on the processing

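With 1 array per group no spread between samples is known, and dim probes limit what can be read. Sizes of single members stayed within the scanner error of the reported value in all comparisons, except in 19 of 28 cases with E1A spike-in scaling and 4 of 28 with normexp and quantile normalization. Most settings could hardly move a single member. The filters and the authors' table left each value as it was or nearly so. Scaling to the median, the spike-in or the second part of the rows moved all members of a comparison alike. The sizes that stayed within the error are thus no separate support. No direction of a member that had been 1.5-fold apart reversed. The count of members 1.5-fold apart between the Rbpj KO and WT, 4, became 2 with normexp, 1 with median scaling, 0 with spike-in scaling, 2 of the 6 left by a stricter filter, 1 of the 4 in the second part of the rows, and 1 at 2-fold. Between the Rbpj KO and the Dll1 KO it became 2 with normexp, 2 with spike-in scaling (1 higher, 1 lower), 3 with median scaling (2 higher, 1 lower, the lower one Tox2), 2 with the stricter filter, 1 in the second part of the rows and 1 at 2-fold, and between the Dll1 KO and WT 1 without a filter. With spike-in scaling the members' median was -0.23 for the Rbpj KO minus WT and -0.15 for the Rbpj KO minus the Dll1 KO.

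Over all genes, 1289 were 1.5-fold apart between the Rbpj KO and WT (518 higher, 771 lower), against 511 with normexp, 7078 with spike-in scaling (90 higher, 6988 lower), 3764 without a filter (2074 higher, 1690 lower), 504 with the stricter filter (120 higher and the rest lower), 699 in the second part of the rows and 366 at 2-fold. Median scaling gave 305 higher and 1417 lower. The Dll1 KO and WT had 438 apart (201 higher, 237 lower), against 111 with normexp (65 higher, 46 lower), 2489 without a filter, 78 with the stricter filter (54 higher, 24 lower), 218 in the second part of the rows and 91 at 2-fold. Scaling gave 146 higher and 296 lower to the median and 73 higher and 567 lower to the spike-in. The Rbpj KO and Dll1 KO had 1315 apart (600 higher, 715 lower), against 613 with normexp, 3610 with spike-in scaling (166 higher, 3444 lower), 3969 without a filter (2295 higher, 1674 lower), 525 with the stricter filter (132 higher, 393 lower), 728 in the second part of the rows and 465 at 2-fold. Median scaling gave 390 higher and 1043 lower. The cause was not tested beyond what each setting does by construction, such as testing fewer genes.

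The authors' deposited table gave the same counts and medians, which follows from how it was made. Its constants were -7.14 in the Rbpj KO, -7.27 in the Dll1 KO and -7.47 in WT. The 75th percentiles subtracted here were 7.14, 7.28 and 7.47 in the same order. That table is thus the same signal under nearly the same scaling and no separate check. Subtracting the neighbouring probes, chosen after seeing the data, kept the counts at 4, 0 and 4, and could not have lowered the first of these. Naming by a gene name printed in the scanner files was not run, since no such column was found in them. No paired analysis was possible because each group has 1 array and no result comes from a test.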
